A study of Rattus norvegicus with 6 samples.

Results

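The genes described here are 9 of the 32552 annotated rat genes counted in the striatum, which receives most input to the basal ganglia: the oxidative stress factor Nfe2l2, 5 of its textbook targets (Hmox1, Nqo1, Gclc, Gclm and Txnrd1) and 3 enzymes that clear superoxide and peroxide (Sod1, Sod2 and Cat). They were taken by Ensembl ID, each kept only where its chromosome was the one known for the gene, and all 9 passed the filter on low counts. Poly(A)-selected RNA came from 6 male Sprague-Dawley rat samples. Over 15 days, the 3 controls (control 1, 2 and 4) had 0.9% NaCl by intraperitoneal injection. The 3 exposed samples (Mn-exposed 13, 14 and 17) had MnCl2 at 25 mg/kg over the same 15 days. The numbers are those of the sample titles. No genotype or age is given in the labels, and nothing in the labels says that each sample is a separate rat; what the p-values measure is the spread between samples, which may be technical. The comparison asks whether exposure to manganese (Mn), a metal that accumulates in the basal ganglia, alters the transcripts of this defence system in the striatum.

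NRF2, the protein made from Nfe2l2, is held in the cytoplasm by KEAP1, which directs its degradation. Oxidants and electrophiles modify KEAP1, and NRF2 then enters the nucleus, pairs with a small MAF protein and binds the antioxidant response element (ARE) of genes for detoxification, glutathione synthesis and thiol reduction. Superoxide is converted to hydrogen peroxide by superoxide dismutases, of which the mitochondrial enzyme, encoded by Sod2, carries Mn at its active site, and catalase breaks hydrogen peroxide down. NRF2 is controlled largely at the level of the protein, which RNA counts do not measure.

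The libraries held 21754379 to 32569760 counts, and the 9 genes together took between 0.0560% and 0.0645% of them. Single members had between 126 counts (Hmox1 in Mn-exposed 14) and 5390 counts (Sod2 in control 2). Transcripts of the mitochondrial genome (mtDNA) took 13.9% to 16.6% of counts in controls and 8.64% to 13.8% in Mn-exposed samples. On the first principal component of the 1000 most variable genes, control 1 (-24.0) and Mn-exposed 13 (-22.5) stood together, opposite Mn-exposed 14 (34.1) and 17 (20.4). The files list genes by ID without names, so markers of striatal cell types and the other genes of the NRF2 pathway were not analysed here. In bulk tissue, fewer cells of a type and less RNA per cell cannot be told apart.

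The ARE is the sequence that NRF2 binds, and its matches near the start sites are shown for that reason. RefSeq windows on GRCr8, from 250 bases before to 50 after a gene's start, were at hand for 8 members, all but Hmox1. The ARE core TGACNNNGC, searched on both strands, had 1 match each in the windows of Gclm, Sod2 and Nfe2l2 and in 1 of the 2 windows of Txnrd1, against 12.1% of all 33469 windows. The AP-1 motif TGANTCA, a related site for other leucine zipper factors, had 0 matches in the members' windows, against 7.33% of all windows. A match describes letters and not binding. The matches before the start site are given here 5′ to 3′ along the gene's strand with 12 bases on each side, and the capitals mark the match, which in all 3 reads as the ARE core on the opposite strand:
Gclm, chr2:213031951-213031983 (plus strand, GRCr8): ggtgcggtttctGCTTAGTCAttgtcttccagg
Txnrd1, chr7:22755962-22755994 (minus strand, GRCr8): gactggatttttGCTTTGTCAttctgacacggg
Sod2, chr1:50050183-50050215 (minus strand, GRCr8): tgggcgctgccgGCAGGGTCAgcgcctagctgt
The match starts 172 bases before the start site in Gclm, 78 before it in Txnrd1 and 35 before it in Sod2. In Nfe2l2 it lay 38 bases past the start site and read TGACGCCGC on the gene's own strand. The other members with a window, Nqo1, Gclc, Sod1 and Cat, had 0 matches to either motif there. Sequence outside these windows, farther than 250 bases before the start, was not searched, so 0 matches does not mean that a gene lacks an ARE.

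None of the 9 genes passed the test between Mn-exposed and control striatum. The 2 with the largest estimated differences, Hmox1 and Nqo1, had group means 34.3% and 32.2% lower in Mn-exposed samples, and the other 7 differed by 12.9% or less. With edgeR's quasi-likelihood test and Benjamini-Hochberg adjustment over 15252 genes, 0 of 9 members and 0% of all genes were called at 0.05, and the members' adjusted p ran from 0.665 to 0.964. At an unadjusted p under 0.05 there was 1 member, Nqo1, against 7.47% of all genes, so 1 of 9 is near the background. DESeq2 called 0 members, against 0.403% of the genes it tested, and gave 1 member, again Nqo1, an unadjusted p under 0.05, against 6.4% of genes. Estimates were below 0 in 7 members and above 0 in Gclc and Txnrd1, where 47.4% of all genes were below 0. The members' median log2 fold change was -0.068, against 0.016 over all genes tested.

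**Figure D1:**
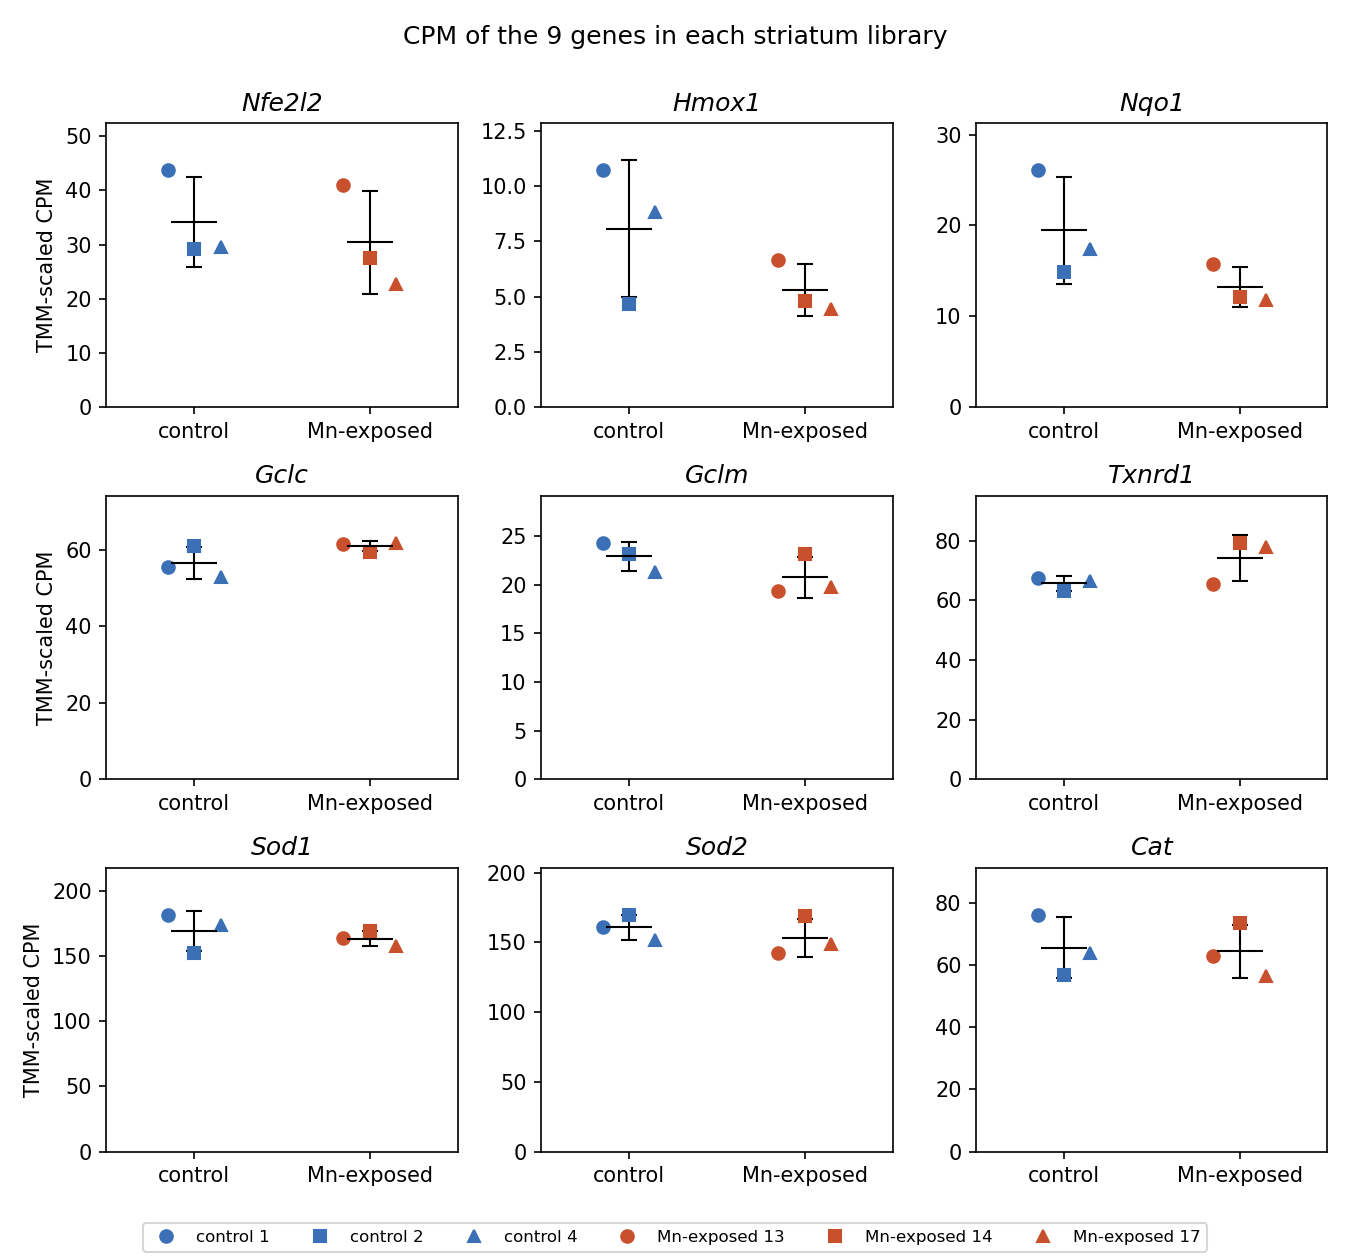
CPM, the counts of a gene scaled to the size of its library with TMM factors, of each gene on the vertical axis, for the 3 control and 3 Mn-exposed libraries. Points are libraries, with the same symbol for the same ID number in the labels, and bars are the mean and SD; the groups overlap in all 9 genes, and control 1 is the highest library in 6 of them.

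Nfe2l2 (ENSRNOG00000001548, chromosome 3, 62497571 to 62524996, minus strand, 5 merged exons on Rnor_6.0) stood at 43.7, 29.2 and 29.5 CPM in control 1, 2 and 4, and at 40.9, 27.5 and 22.7 CPM in Mn-exposed 13, 14 and 17. A single library in each group was high, control 1 and Mn-exposed 13, and the groups overlapped over most of their range. The means were 34.1 ± 8.29 and 30.4 ± 9.44 CPM (SD, n = 3 each), with a log2 fold change of -0.17 (SE 0.26, edgeR adjusted p = 0.860). The 95% interval of the fold, Mn-exposed over control, ran from 0.585 to 1.36. The sign of the Nfe2l2 estimate turned without control 1 (0.049) and without Mn-exposed 17 (0.0066).

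Hmox1 (ENSRNOG00000014117, chromosome 19, 14508616 to 14515456, plus strand, 5 merged exons) encodes heme oxygenase 1, the inducible enzyme that breaks heme down to biliverdin, iron and carbon monoxide. It stood at 10.7, 4.69 and 8.85 CPM in control 1, 2 and 4, and at 6.67, 4.81 and 4.46 CPM in Mn-exposed 13, 14 and 17. Control 1 and 4 lay above all Mn-exposed samples, while control 2 lay among them. The means were 8.09 ± 3.09 and 5.31 ± 1.19 CPM (SD, n = 3 each), a mean 34.3% lower with Mn (log2 fold change -0.60, SE 0.33, edgeR adjusted p = 0.676). The interval of the fold, from 0.383 to 1.13, covers both a 2-fold lower level and no difference. The estimate was -0.35 without control 1 and -0.88 without control 2.

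Nqo1 (ENSRNOG00000012772, chromosome 19, 38422164 to 38437180, plus strand, 6 merged exons) encodes a quinone reductase that converts quinones directly to hydroquinones, and is a standard readout of NRF2. It stood at 26.0, 14.8 and 17.4 CPM in control 1, 2 and 4, and at 15.7, 12.1 and 11.7 CPM in Mn-exposed 13, 14 and 17. Only Mn-exposed 13 reached into the control range, above control 2. The means were 19.4 ± 5.86 and 13.2 ± 2.21 CPM (SD, n = 3 each), a mean 32.2% lower with Mn (log2 fold change -0.56, SE 0.24). The edgeR p for Nqo1 was 0.0497 unadjusted and 0.665 adjusted, and the interval of the fold ran from 0.460 to 0.999. Without control 1 the Nqo1 estimate was -0.29, with an unadjusted edgeR p of 0.157. Taken within the ID numbers of the labels, Nqo1 was lower with Mn in all 3 pairs, by 0.73, 0.30 and 0.57 on the log2 scale, as were Nfe2l2 and Sod2, where 18.3% of all genes were.

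**Figure D2:**
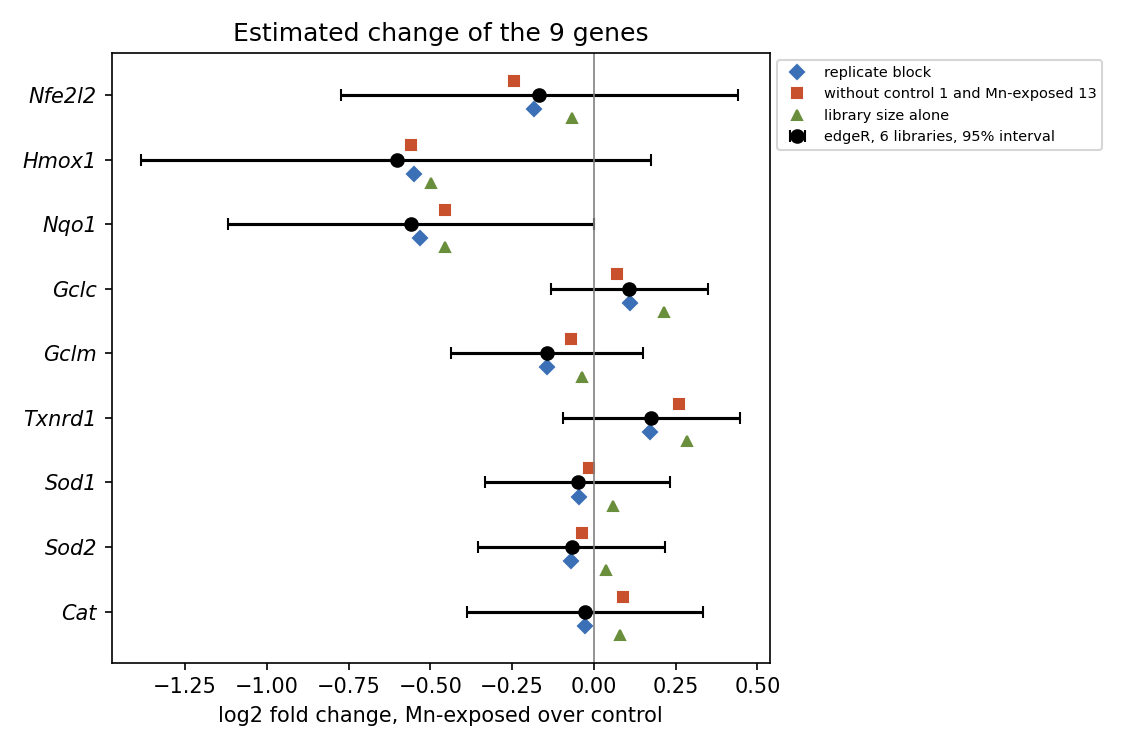
Log2 fold change, Mn-exposed over control, on the horizontal axis for each gene. Black points are the edgeR estimates over 6 libraries with 95% intervals, and coloured symbols are the estimates with the ID number as a replicate block, with control 1 and Mn-exposed 13 left out, and with scaling by library size alone. Hmox1 and Nqo1 lie farthest to the left, at -0.60 and -0.56, and the 3 widest intervals are those of Hmox1, Nfe2l2 and Nqo1.

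The genes of glutathione synthesis, Gclc and Gclm, encode the catalytic and the modifier subunit of glutamate-cysteine ligase, the enzyme of the rate-limiting step. Gclc (ENSRNOG00000006302, chromosome 8, 85059051 to 85097468, plus strand, 16 merged exons) stood at 55.4, 61.0 and 52.8 CPM in control 1, 2 and 4, and at 61.4, 59.4 and 61.8 CPM in Mn-exposed 13, 14 and 17. The Mn-exposed samples lay close together, with control 2 among them. Mn-exposed 13 and 17 lay just above all controls, and Mn-exposed 14 lay within the control range. The log2 fold change of Gclc was 0.11 (SE 0.10, edgeR adjusted p = 0.774), with an interval of the fold from 0.913 to 1.27. Gclm (ENSRNOG00000013409, chromosome 2, 225827504 to 225847874, plus strand, 7 merged exons) stood at 24.3, 23.1 and 21.3 CPM in control 1, 2 and 4, and at 19.3, 23.2 and 19.7 CPM in Mn-exposed 13, 14 and 17. Of the Mn-exposed samples, 13 and 17 lay below all controls in Gclm and 14 lay within them. Its log2 fold change was -0.14 (SE 0.12, edgeR adjusted p = 0.758), with an interval of the fold from 0.739 to 1.11.

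The 2 subunits therefore had estimates of opposite sign, and their ratio within a library does not depend on scaling. Control 1, 2 and 4 had 2.28, 2.63 and 2.48 Gclc counts per Gclm count, and Mn-exposed 13, 14 and 17 had 3.17, 2.56 and 3.13. The ratio was above all controls in 2 of the 3 Mn-exposed samples, and Mn-exposed 14 lay within them. The mean was 2.46 ± 0.178 in controls and 2.95 ± 0.345 with Mn (SD, n = 3 each), a difference of 0.26 on the log2 scale (two-sided exact permutation test, p = 0.2). The smallest p that 3 samples against 3 can give is 0.1, so this test could not pass 0.05. Over the 3 ratios tested, the exact permutation p adjusted by Benjamini-Hochberg was 0.3.

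Txnrd1 (ENSRNOG00000009088, chromosome 7, 26946125 to 26984400, minus strand, 16 merged exons) encodes the cytosolic selenoenzyme that keeps thioredoxin reduced. It stood at 67.4, 62.9 and 66.6 CPM in control 1, 2 and 4, and at 65.3, 79.3 and 77.8 CPM in Mn-exposed 13, 14 and 17. Mn-exposed 14 and 17 lay above all controls and Mn-exposed 13 lay among them. The means were 65.6 ± 2.38 and 74.1 ± 7.66 CPM (SD, n = 3 each), the largest estimate above 0 among the members (log2 fold change 0.18, SE 0.11, edgeR adjusted p = 0.706; interval of the fold 0.936 to 1.36). Without control 1 and Mn-exposed 13, the pair that stood together on the first component, the Txnrd1 estimate was 0.26 with an unadjusted edgeR p of 0.0403 (adjusted p = 0.261). In that fit 2 of 9 members, Nqo1 and Txnrd1, had an unadjusted p under 0.05, against 17.5% of all genes. The Mn-exposed samples in which Txnrd1 was high also had the lowest mtDNA shares (8.64% and 12.4%) and the highest first component; the part of these in the result was not tested.

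Scaling decided whether groups overlapped. With TMM, 0 of 9 members had groups that did not overlap, against 12.1% of all genes. With library size alone, all 3 Mn-exposed samples lay above all 3 controls in Gclc and Txnrd1, against 13.7% of all genes, and the median over all genes tested moved from 0.016 to 0.12 on the log2 scale. The estimates moved with it, from 0.11 to 0.21 for Gclc and from 0.18 to 0.28 for Txnrd1.

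Sod1, Sod2 and Cat, the superoxide and peroxide enzymes, had the smallest estimated differences over the 6 libraries with TMM scaling. This ranking held without control 2 and without Mn-exposed 13, but not with other samples left out. Without control 1, Nfe2l2 (0.049) was nearer 0 than Sod2 (-0.068) and Cat (0.092). Without Mn-exposed 17, Nfe2l2 (0.0066) was nearer 0 than all 3. Without Mn-exposed 14, Nfe2l2 (-0.092) was nearer 0 than Sod2 (-0.14) and Cat (-0.13). Without control 4, Gclc (0.063) was nearer 0 than Sod2 (-0.11). Sod1 (ENSRNOG00000002115, chromosome 11, 30363280 to 30368862, plus strand, 5 merged exons), the copper-zinc enzyme of the cytosol, stood at 181.7, 152.3 and 174.1 CPM in control 1, 2 and 4, and at 164.0, 169.2 and 157.9 CPM in Mn-exposed 13, 14 and 17. All 3 Mn-exposed values lay inside the control range. The log2 fold change of Sod1 was -0.049 (SE 0.12, edgeR adjusted p = 0.909), with an interval of the fold from 0.795 to 1.18.

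Sod2 (ENSRNOG00000019048, chromosome 1, 47914759 to 47921587, minus strand, 5 merged exons), whose enzyme uses the metal given here, stood at 161.0, 169.5 and 151.5 CPM in control 1, 2 and 4, and at 142.4, 168.8 and 148.5 CPM in Mn-exposed 13, 14 and 17. The means were 160.7 ± 9.02 and 153.2 ± 13.8 CPM (SD, n = 3 each), 4.62% apart and within the spread of either group. The log2 fold change of Sod2 was -0.068 (SE 0.12, edgeR adjusted p = 0.880), and the 95% interval of the fold, from 0.782 to 1.16, holds no difference and excludes a 1.5-fold change in either direction. Cat (ENSRNOG00000008364, chromosome 3, 93379874 to 93412058, minus strand, 13 merged exons), catalase, stood at 76.2, 57.1 and 64.0 CPM in control 1, 2 and 4, and at 63.0, 73.8 and 56.7 CPM in Mn-exposed 13, 14 and 17. The groups of Cat overlapped almost fully (log2 fold change -0.027, SE 0.15, edgeR adjusted p = 0.964; interval of the fold 0.764 to 1.26). With scaling by library size alone the estimates for Sod1, Sod2 and Cat turned in sign, to 0.058, 0.038 and 0.080, with the shift of the median of all genes to 0.12, and all 3 stayed below that median. Over the whole list, the 95% interval lay inside a 1.5-fold change in 6 members (Gclc, Gclm, Txnrd1, Sod1, Sod2 and Cat), and inside a 2-fold change in 7, Nfe2l2 included.

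Within libraries, Sod2 and Sod1 stood in a ratio of counts of 0.886, 1.11 and 0.870 in control 1, 2 and 4. The same ratio was 0.869, 0.998 and 0.940 in Mn-exposed 13, 14 and 17. The difference of -0.025 on the log2 scale was smaller than the SD of the controls (0.20), and the two-sided exact permutation test gave p = 0.8, also after adjustment over the 3 ratios. The third ratio set Sod2, a nuclear gene of a mitochondrial enzyme, against the 13 mtDNA features longer than 200 bases. It was chosen when the mtDNA share was already known to differ by library. Its test is therefore no separate support for a change in Sod2. Per 1000 mtDNA counts, control 1, 2 and 4 had 0.932, 1.19 and 1.04 counts of Sod2, and Mn-exposed 13, 14 and 17 had 1.04, 2.04 and 1.27. Mn-exposed 14 stood far above the rest and Mn-exposed 13 lay within the controls. The difference was 0.41 on the log2 scale (two-sided exact permutation p = 0.2, adjusted over the 3 ratios 0.3). It was 0.13 without Mn-exposed 14 and 0.62 without Mn-exposed 13. The exact permutation p without Mn-exposed 13 was 0.1, the smallest that the samples left can give. In Mn-exposed 14 the Sod2 level of 168.8 CPM lay within the control range, while its mtDNA counts (2163189) were the fewest of the 6 libraries.

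**Figure D3:**
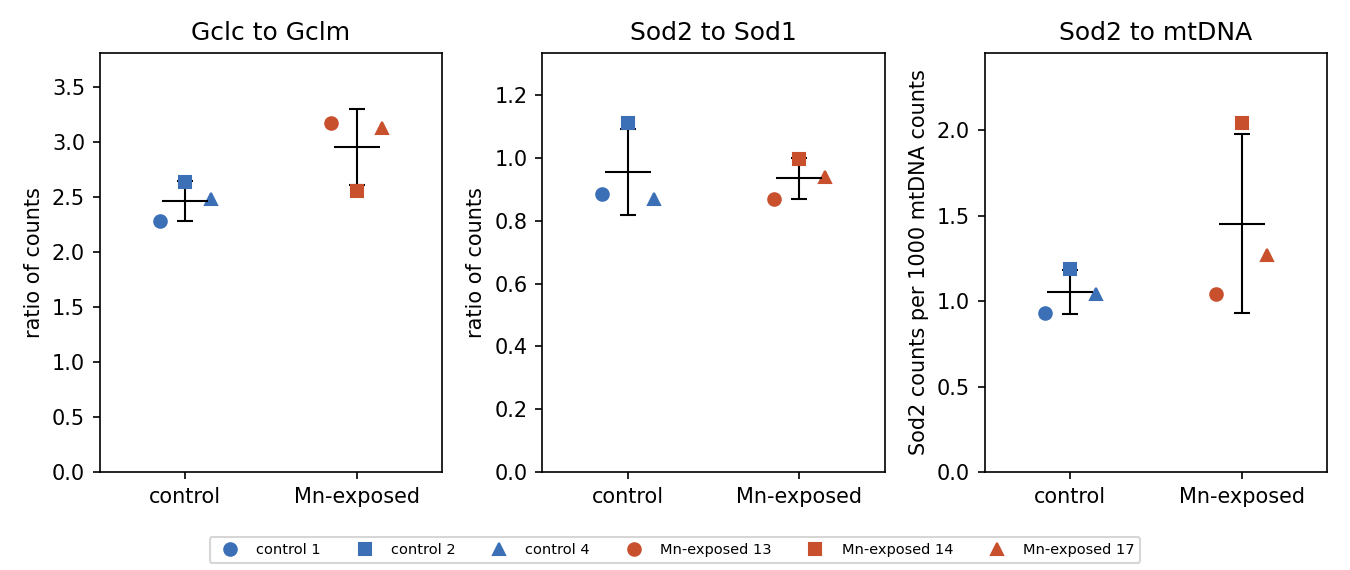
Ratios of counts within each library on the vertical axes (the third as Sod2 counts per 1000 mtDNA counts), for the control and Mn-exposed libraries. Points are libraries and bars are the mean and SD; Mn-exposed 14 lies within the controls for Gclc to Gclm and stands apart at 2.04 for Sod2 to mtDNA.

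Per kilobase of exon, the superoxide dismutases were by far the most abundant members. Sod1 averaged 253.9 CPM per kilobase over the 6 libraries (232.2 to 277.0), which placed it at percentile 98.6 of all genes tested, and Sod2 averaged 76.1 (69.0 to 82.2), at percentile 93.6. Cat followed at 25.6, Txnrd1 at 20.4, Gclc at 19.3, Gclm at 14.7, Nfe2l2 at 14.0, Nqo1 at 10.3 and Hmox1 at 4.28 CPM per kilobase, where the median gene stood at 8.19. Hmox1, at percentile 34.5, was the only member below that median. Of the steps in this order, Sod1 over Sod2, Sod2 over Cat, Gclc over Gclm and Nqo1 over Hmox1 separated the ranges of the libraries completely. Cat and Txnrd1, Txnrd1 and Gclc, and Gclm and Nfe2l2 were neighbours whose order changed between libraries. Nfe2l2 exceeded Nqo1 in all 6 libraries, by 1.15 to 1.78 times, although their ranges overlapped. Exonic length covers all annotated exons of a gene, so these levels depend on which transcripts are in use.

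**Figure D4:**
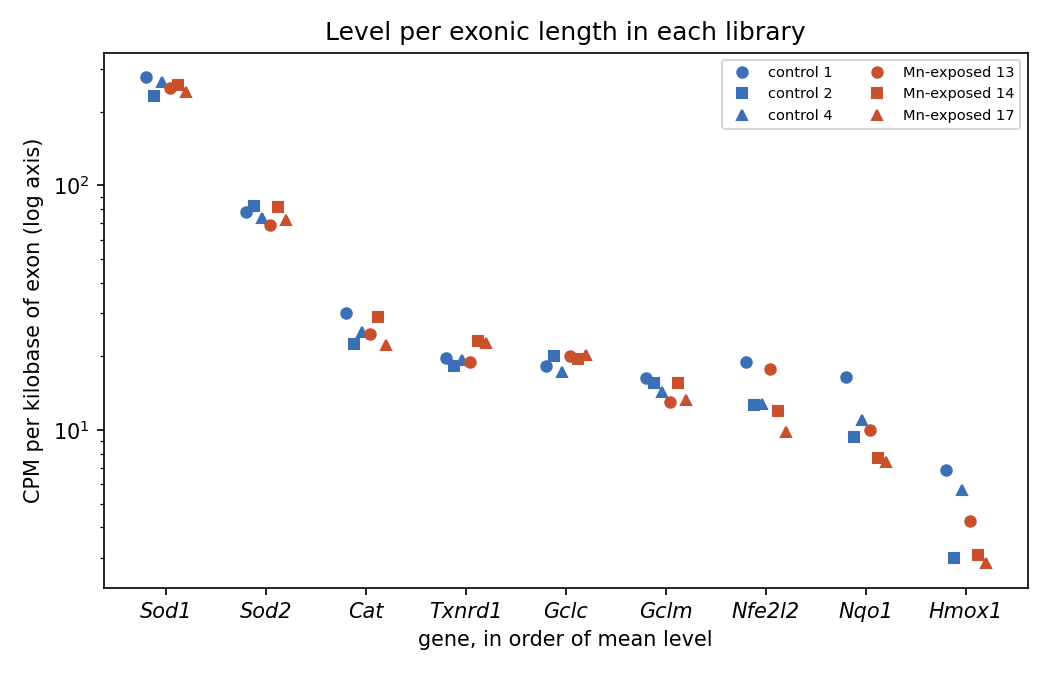
Level in each library as CPM per kilobase of exon, on a log axis, with the genes in order of their mean over 6 libraries. Points are libraries; Sod1 and Sod2 stand apart at the top with means of 253.9 and 76.1, and Hmox1 is lowest at 4.28.

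The members differed in how much they varied among samples of the same group. Among controls the coefficient of variation was 38.2% for Hmox1, 30.2% for Nqo1 and 24.3% for Nfe2l2, against a median of 14.7% over all genes. Without control 1 it was 0.866% for Nfe2l2, 11.3% for Nqo1 and 43.5% for Hmox1, against a median of 7.15% over all genes. The values for Nfe2l2 and Nqo1 thus rest in large part on that library, as does the median over all genes. With all 3 controls the coefficient was 14.8% for Cat, 8.99% for Sod1, 7.41% for Gclc, 6.70% for Gclm, 5.62% for Sod2 and 3.62% for Txnrd1. Among Mn-exposed samples the same 3 genes varied most, at 31.1% for Nfe2l2, 22.3% for Hmox1 and 16.8% for Nqo1, against a median of 15.5% over all genes. The factor and its heme and quinone targets were thus the members with the least precise estimates.

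Nfe2l2, Hmox1, Nqo1 and Cat had their extremes in the same libraries. In Cat, control 1 stood at 0.24 and Mn-exposed 17 at -0.19 from the gene's mean on the log2 scale. Control 1 was highest in Nfe2l2, Hmox1 and Nqo1, by 0.48, 0.76 and 0.73 above the gene's mean on the log2 scale, and Mn-exposed 17 was lowest in each, at -0.47, -0.50 and -0.42. Between these they differed: control 4 stood at -0.09 in Nfe2l2 and 0.49 in Hmox1, and Mn-exposed 13 at 0.38 in Nfe2l2 and 0.08 in Hmox1. Control 1 was the highest library in 6 of the 9 members, against 26.8% of all genes, and Mn-exposed 17 the lowest in 4, against 20.5%. The share of all genes with both extremes in these libraries is not given here. Over the 6 libraries the log2 CPM of Hmox1 and Nqo1 were the most alike of the 36 pairs of members (Pearson r = 0.916), ahead of Gclm and Sod2 (0.889), Sod1 and Cat (0.856) and Hmox1 and Sod1 (0.849). Nfe2l2 correlated at 0.810 with Nqo1 and 0.736 with Hmox1. The least alike were Hmox1 and Gclc (-0.809). Gclc and Gclm, subunits of 1 enzyme, correlated at -0.37, and Sod1 and Sod2 at -0.026. These values describe 6 libraries that share their groups and a first component, and are not tests. Control 1 and Mn-exposed 13, the high libraries of Nfe2l2, were also those at the low end of that component; its part in the pattern was not tested.

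**Figure D5:**
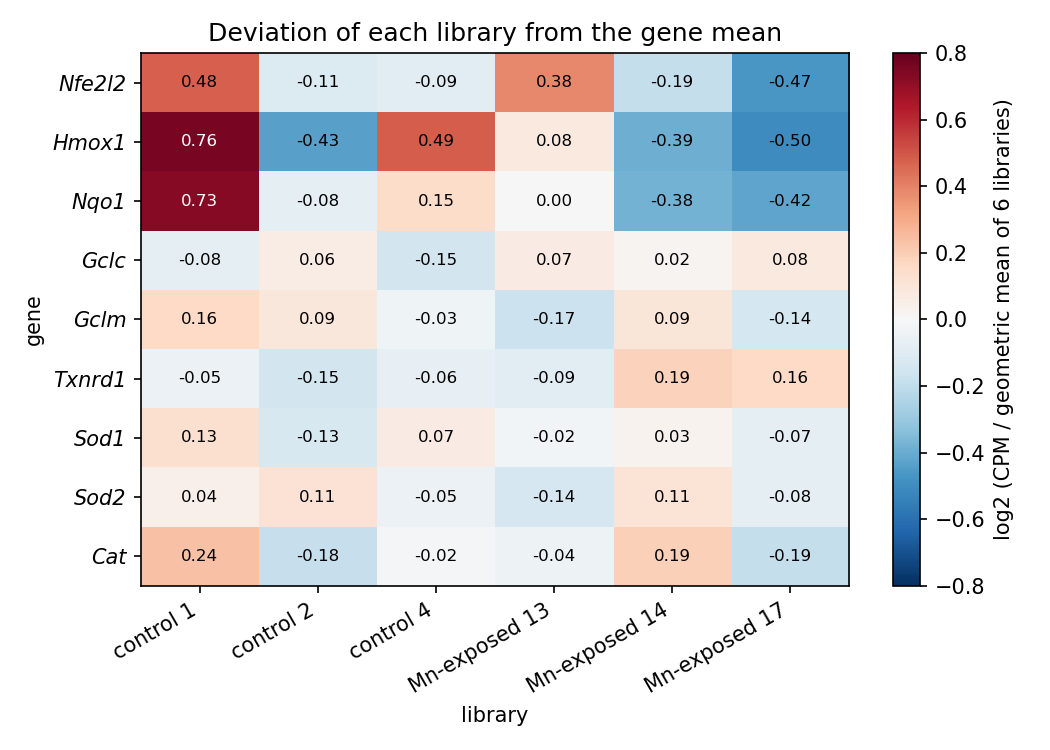
Deviation of each library (columns) from the gene's geometric mean over the 6 libraries, as log2 of the CPM ratio, for each gene (rows). Red is higher and blue is lower; Nfe2l2, Hmox1 and Nqo1 range from -0.50 to 0.76, and Gclc stays between -0.15 and 0.08.

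Outside the list, the genes whose log2 CPM was most like that of Nfe2l2 over the 6 libraries were ENSRNOG00000020308 (chromosome 1, 87009730 to 87016005, plus strand) and ENSRNOG00000021087 (chromosome 1, 89491654 to 89502974, plus strand), with a Pearson r of 0.997 and 0.996. The first stood at 81.4, 55.2 and 57.6 CPM in control 1, 2 and 4, and at 75.7, 52.3 and 46.1 CPM in Mn-exposed 13, 14 and 17. Such likeness was common in these 6 libraries: 724 genes, 4.75% of those tested, had an r above 0.9 with Nfe2l2.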

How the data were processed

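The deposited counts, which the authors had not normalised, are whole read numbers for each Ensembl gene and sample, with exon positions and exonic length per the file headers. The series-wide table was identical (0 cells differed). Per the submitters' processing notes, the authors used bcl2fastq 2.17, STAR 2.5.2b, DESeq2 (version not named) and build Rnor_6.0. Not given in the sources used here are the counting tool, annotation release and strand setting. Exonic length is in bases in the other deposited column. Per the labels' protocols, the kit was NEBNext Ultra RNA with poly(A) selection. None of the members overlaps another annotated gene, so reads of an antisense partner do not enter their counts by annotation.

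The members, the lists and the ratio of Sod2 to mtDNA were chosen with earlier results of these data known. All 9 are named. A RefSeq table of gene models (GRCr8) placed all 9 symbols on the same chromosome as the IDs, and 7 had a span within 10% of the files' (Hmox1 and Txnrd1 are longer there). The table pairs 0 of 32552 IDs with a symbol, so the planned lists of pathway genes and cell type markers were not analysed here.

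Filtering with filterByExpr kept 15252 genes, and edgeR 4.0.16 (R 4.3.3) was run on them with TMM factors (quasi-likelihood F-test, robust, no block, Benjamini-Hochberg over all genes tested). Standard errors and 95% intervals come from the F statistic and its degrees of freedom. Alternatives were DESeq2 1.42.0, limma-voom 3.58.1, other scalings and filters, mtDNA features removed, the ID number as a block, and samples left out. The steps were tested on simulated counts. Deviations from the group means correlated at 0.417, 0.109 and 0.227 between samples with the same ID number, all above the minimum of 0.1 set for pairing. Some pairs with different numbers exceeded it as well (control 2 with Mn-exposed 17 at 0.274, control 4 with Mn-exposed 14 at 0.145). The pairs are those of the ID numbers, but the labels state no shared litter or day. The only ground for using them as a block was this correlation. Correlations between genes used log2 CPM with a prior count of 2.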

Additional observations from a re-analysis of the deposited data

How the results depend on the processing

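The count of members past an adjusted p of 0.05 was 0 under all 16 alternatives run (smallest adjusted p of a member 0.168, Nqo1 with DESeq2 and the replicate block, which was added after the data were seen). Of all genes, DESeq2 called 92 of 22856, and 291 of 22862 with the replicate block. The edgeR fit without control 1 and Mn-exposed 13 called 58 of 15378. The other alternatives called no gene at all, so a count of 0 members there does not set the members apart. The count at an unadjusted p under 0.05, 1 with edgeR, was 0 with library size alone (9.72% of all genes in that fit), a mean CPM of at least 1 (7.10%) or limma-voom (7.25%), 2 without control 1 and Mn-exposed 13 (17.5%), and 0 to 2 with 1 replicate left out: 0 without control 1 (8.07%), control 4 (4.36%), Mn-exposed 14 (5.33%) or Mn-exposed 17 (3.73%), 1 without Mn-exposed 13 (15.2%) and 2 without control 2 (5.11%). The cause was not tested. With the replicate block this count was 1, Nqo1, against 13.9% of all genes, so it is near the background of that fit, and the block changed no call. The log2 fold change of Nqo1 with the replicate block was -0.53 (edgeR adjusted p = 0.262, unadjusted p = 0.00861). Groups did not overlap in 2 members with library size alone (16.4% of all genes), against 0 with TMM (12.1%). Hmox1, Nqo1, Gclc, Gclm and Txnrd1 kept their sign under all 16. With 1 replicate left out they ran from -0.88 to -0.35, -0.72 to -0.29, 0.063 (without control 4) to 0.17 (without control 2), -0.22 (without Mn-exposed 14) to -0.098 and 0.13 to 0.25, and Sod2 lay between -0.14 and -0.025, the values without Mn-exposed 14 and 13. Library size alone moved the median of all genes from 0.016 to 0.12, and the estimate of every member rose as well. Which scaling is nearer the true levels was not tested. The sign turned for Nfe2l2 without control 1 (0.049) and without Mn-exposed 17 (0.0066; range -0.44 to 0.049 with 1 replicate left out); for Sod1 with library size alone (0.058) and without control 1 (0.0035; range -0.12 to 0.0035); for Sod2 with library size alone (0.038); and for Cat with library size alone (0.080), without control 1 and Mn-exposed 13 (0.088), without control 1 (0.092) and without Mn-exposed 17 (0.059; range -0.13 to 0.092). The difference in the log2 ratio of Sod2 to Sod1, -0.025, lay between -0.088 and 0.089 with 1 replicate left out and turned without control 2 (0.089) and without Mn-exposed 13 (0.028). The other ratios kept their sign; that of Sod2 to mtDNA, 0.41, was 0.13 without Mn-exposed 14 and 0.62 without Mn-exposed 13. The members' median, -0.068, was 0.038 with library size alone, again below the median of all genes there (0.12), and 0.0035 without control 1. Depth was lowest for Hmox1, with 126 to 226 counts per library.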
